A study of Bos taurus with 43 samples.

Results

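Heat shock proteins are molecular chaperones, and 6 of their genes were followed here in the biceps brachii muscle of 43 male cattle. They were the small heat shock proteins HSPB1 and CRYAB, the HSP70 proteins HSPA1A and HSPA8, the HSP70 protein of the endoplasmic reticulum HSPA5, and HSP90AA1. The genes were chosen by name, as those whose symbol stood in the gene name, the description or behind the accession of a probe, and they are 6 of the 15041 genes named for at least 1 probe of the array. In all, 8 probes matched, 3 of them for HSPA1A, and 7 of the 8 passed the filter on dim probes.

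Each animal was hybridized to 1 single-colour array, and values are normalized log2 signals, on which a difference of 1 is a factor of 2. Of the 25 commercial animals sampled after slaughter, 4 (S21, S54, S56 and S57) carry the label of a suspected corticosteroid treatment and are called positive, as the study does after thymus histology and urine tests for dexamethasone. The other 21 are called unknown, because neither treatment nor its absence is established for them. The negative controls are 5 cross-breed bulls (K7, K8, K10, K11 and K12) and 13 Holstein cattle (C17 to C48), both from earlier controlled experiments.

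According to the methods, the cross-breed controls were Charolais by Limousine crosses and most of the commercial animals were of these breeds or their crosses. All animals were young males, and the labels give no age, dose or agent for any of them. The paper states that the sets of controls differed in age as well as breed, and gives higher body weights for the Holstein cattle. Breed, age and weight therefore cannot be told apart between the controls. Commercial animals came from several slaughter batches, and the labels do not tie an animal to a batch or a farm. For the unknown animals, the study drew sets on a plot of principal components of these same arrays, with 5 animals in set 2, 9 in set 3 and 7 in set 4. In that plot the positive animals lay in set 3 and the cross-breed controls in set 2. Such groupings rest on expression, so values are given by set as a description with no test.

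The arrays lay on 19 slides scanned on 13 days. The 5 cross-breed controls filled 4 slides scanned on 3 days and shared no slide or day with any other group, so group and scan day cannot be told apart in any comparison with them. They were also read on other scanners and by other releases of the scanner software than the other 38 arrays, which all shared 1 scanner and 1 release, so scanner and software cannot be told apart from the group either. The 3 comparisons with the cross-breed controls also share those 5 arrays. The positive animals were all scanned on 1 day, on 2 slides that also held the unknown animals 50, 78, 79 and 81, and this allowed a comparison within slides. The 13 Holstein arrays lay on 7 slides scanned on 4 days of their own.

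Several unknown arrays stood apart. The share of spots well above background ran from 40.2% in animal 79 to 97.3% in animal 50, against 62.9% to 73.6% in the cross-breed controls, 62.3% to 73.2% in the Holstein controls and 74.9% to 89.4% in the positive animals. The 10 spike-in RNAs, which were added to every RNA sample, in amounts the labels do not give for each one, averaged 6.15 to 7.20 on the log2 scale on the arrays of unknown animals 29, 39, 52, 61 and 76 and 8.80 to 10.7 on the other 38. The comparison of unknown with cross-breed animals and the relations among unknown animals were also computed without animals 50 and 79 and without the 5 animals with dim spike-in RNAs. The comparison within shared slides was also computed without animals 50 and 79.

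Small heat shock proteins form large oligomers that hold unfolded proteins in solution without using ATP, and in striated muscle they bind to the sarcomere and the desmin network. HSP70 proteins bind and release unfolded chains in a cycle driven by ATP, with J proteins to start the cycle and exchange factors such as BAG3 to end it, and HSP90 proteins finish the folding of selected clients, the glucocorticoid receptor among them. HSPA1A is the form strongly induced by heat and other stress, HSPA8 is the constitutive cytosolic form and HSPA5 serves the endoplasmic reticulum.

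All 7 probes were well above background on each of the 43 arrays and were bright, with mean signals above those of at least 95.3% of the 16354 probes tested. The labelled tissue was borne out by its markers. The 6 muscle markers ACTA1, CKM, MB, TTN, DES and MYOT had mean signals of 16.05 ± 0.07 (SD) in the positive animals, 15.80 ± 0.30 in the unknown animals, 16.07 ± 0.27 in the cross-breed controls and 15.95 ± 0.22 in the Holstein controls. Muscle is a mixture of fibre types and other cells, and in such bulk samples fewer cells of a type and less RNA per cell cannot be told apart.

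**Figure D1:**
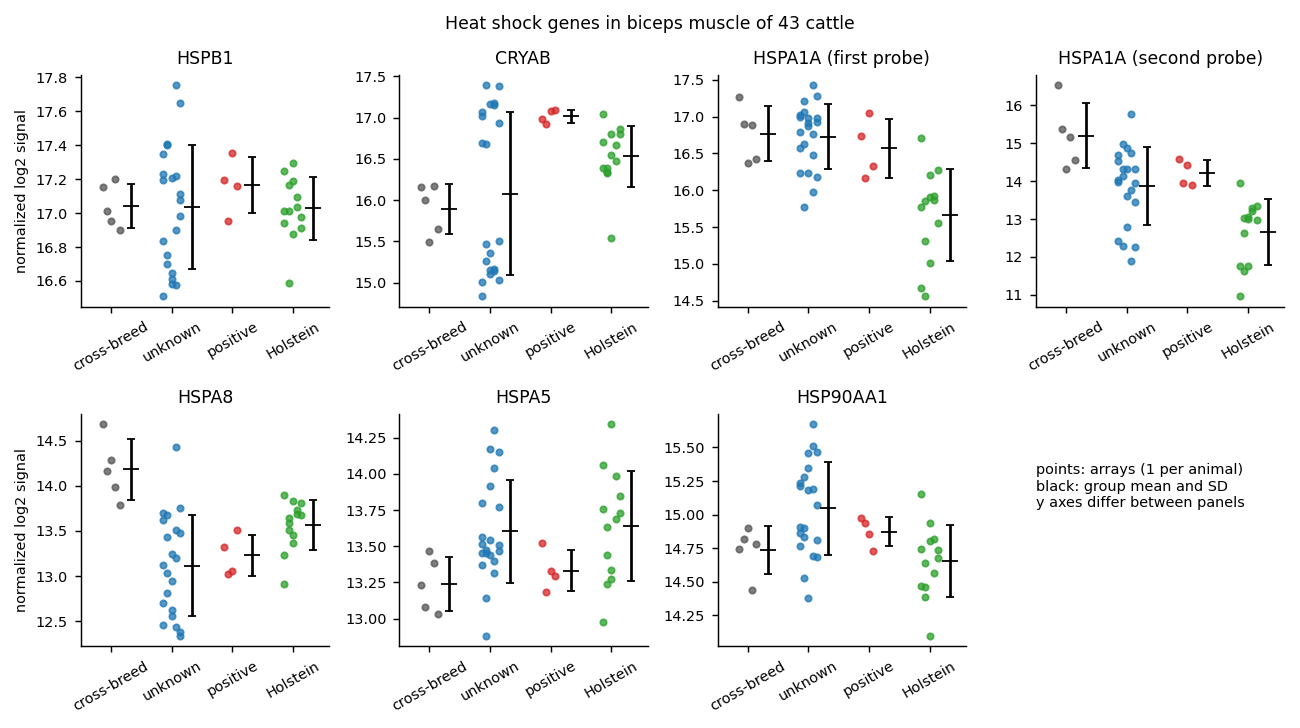
Normalized log2 signal (y axis, a scale of its own in each panel) of the 7 heat shock probes in cross-breed, unknown, positive and Holstein animals, with 1 point per animal and the group mean ± SD in black. CRYAB of the unknown animals fell into a low cluster of 11 and a high cluster of 10, and HSPA8 was highest in the cross-breed controls.

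HSPB1, also known as HSP27, is a small heat shock protein that binds actin filaments. Its signal was 16.95 in S54, 17.16 in S57, 17.19 in S21 and 17.35 in S56, and ran from 16.90 in K12 to 17.20 in K11 among the cross-breed controls. The Holstein controls ran from 16.59 to 17.30 with a median of 17.01, and the unknown animals from 16.51 to 17.75 with a median of 17.08. The 4 groups overlapped, and the unknown animals spread farthest, with 8 of 21 below and 8 of 21 above every cross-breed control.

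The limma log2 change of HSPB1 against the cross-breed controls was 0.12 (95% confidence interval -0.19 to 0.43, adjusted p = 0.49) in the positive, -0.01 (-0.37 to 0.36, adjusted p = 0.976) in the unknown and -0.02 (-0.24 to 0.21, adjusted p = 0.915) in the Holstein animals. None passed the test, and the direction was not stable to scaling: under pairwise cyclic loess, where each array is fitted to each other one, the log2 change in the positive animals was -0.90 (adjusted p = 0.00134), and under 75th percentile scaling it was 0.59 (adjusted p = 0.0143). In the Holstein controls it was 0.42 (adjusted p = 0.0383) under 75th percentile scaling and -0.31 (adjusted p = 0.0314) under quantile normalization. Within the unknown animals, HSPB1 averaged 16.83 ± 0.18 (SD, n = 5) in the study's set 2, 17.37 ± 0.21 (n = 9) in set 3 and 16.75 ± 0.25 (n = 7) in set 4. At least 1 spot of HSPB1 was saturated on the arrays of animals 76 and K12, and on the array of animal 76 so was at least 1 spot of CRYAB and of the first probe of HSPA1A.

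CRYAB, the alpha B-crystallin that protects desmin and titin, was higher in the positive animals than in the cross-breed controls and split the unknown animals. Its signal was 16.92 in S54, 16.99 in S21, 17.07 in S56 and 17.09 in S57. In the cross-breed controls it was 15.49 in K10, 15.65 in K12, 16.01 in K8, 16.15 in K7 and 16.17 in K11. Every positive animal was above every cross-breed control, and the positive animals lay close together.

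CRYAB was 2.18-fold higher in the positive animals than in the cross-breed controls (log2 change 1.12, standard error 0.17, limma adjusted p = 4.21e-04). The two-sided exact permutation test gave p = 0.00794, the smallest that 126 arrangements allow. It was the only heat shock probe of 7 called as changed, which took a limma adjusted p below 0.05 and at least a 2-fold difference. In this comparison 28.1% of all probes tested were called (14.4% as higher), 51.7% passed the adjusted p alone and the ranges of 43.3% did not overlap. The change was 0.40 (adjusted p = 0.0812) under pairwise cyclic loess, and in a common fit of all 43 arrays it kept its size but had an adjusted p of 0.0744.

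Within the shared slides CRYAB was compared with unknown animals, a different contrast. The 4 unknown animals on those slides all belong to the study's set 3, in which its plot also placed the positive animals. The unknown animals on the slides of the positive ones had CRYAB signals of 16.69 in animal 50, 16.69 in animal 81, 16.93 in animal 79 and 17.18 in animal 78. The positive animals lay inside this range. The log2 change with the slide as a block was 0.15, with a 95% confidence interval of -0.21 to 0.51 (limma adjusted p = 0.73).

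In the Holstein controls CRYAB ran from 15.55 in C48 to 17.04 in C23, with a median of 16.54. Of the 13 animals, 12 were above every cross-breed control, and C48 was below all but 1 of them. The log2 change was 0.64 (standard error 0.19, limma adjusted p = 0.00944), past the adjusted threshold but under 2-fold, and under 75th percentile scaling it reached 1.01. The adjusted p was 0.1 under pairwise cyclic loess (log2 change 0.43) and 0.189 in the common fit of all arrays.

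The unknown animals separated into clusters with a gap of 1.18 between them. The low cluster held 11 arrays from 14.83 to 15.50 and the high cluster 10 arrays from 16.69 to 17.39. The median over all 21 was 15.50, which is the top of the low cluster. All 9 animals of the study's set 3 were in the high cluster together with animal 76 of set 4, and the 5 animals of set 2 and the other 6 of set 4 were in the low one.

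The clusters shared no slide and no scan day. The low cluster came from 3 slides scanned on 2 days and the high cluster from 5 slides scanned on 4 days. Slides accounted for 97.6% of the variance of CRYAB among the unknown animals, against a median of 70.9% over all probes. The 5 animals with dim spike-in RNAs were all in the high cluster, where their CRYAB signals ran from 17.06 to 17.39. Their part and the part of the scan day in this split were not tested.

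**Figure D2:**
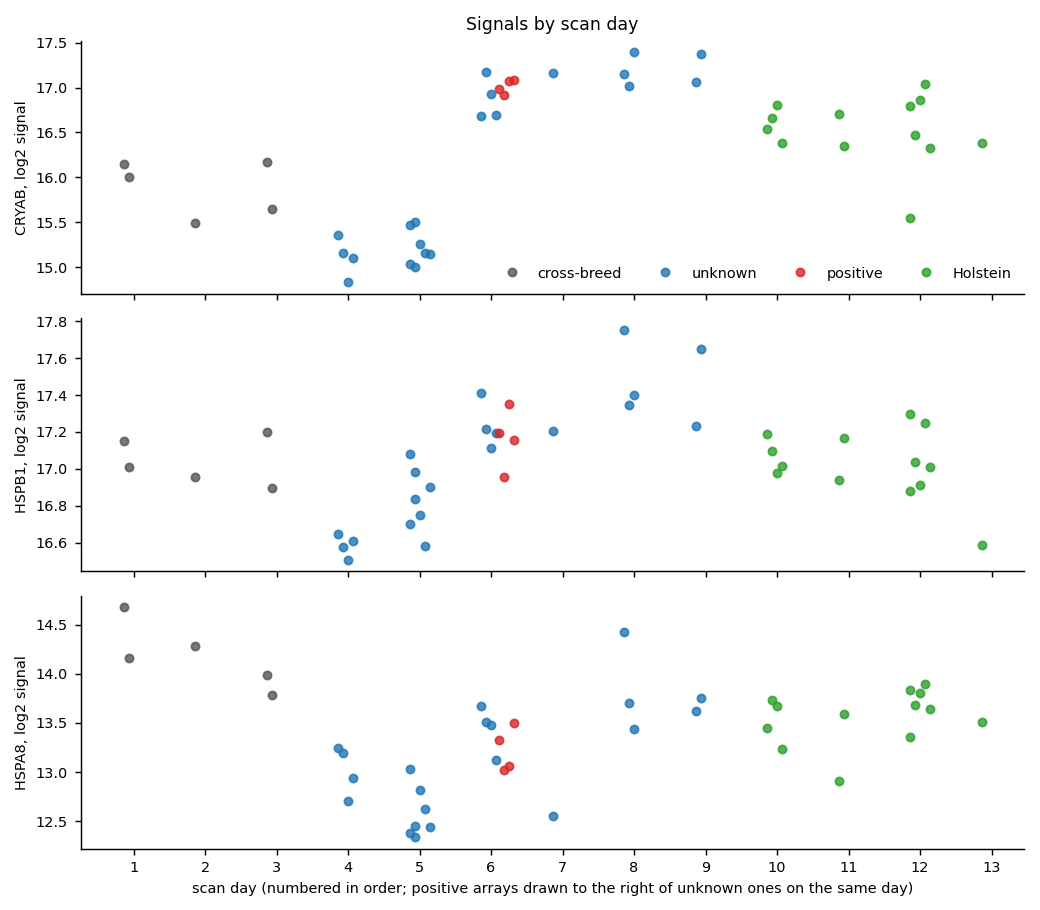
Normalized log2 signals (y axes) of CRYAB, HSPB1 and HSPA8 by scan day (x axis, numbered in order), with 1 point per animal coloured by group. The 11 unknown animals with low CRYAB were scanned on days 4 and 5 and the 10 with high CRYAB on days 6 to 9.

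The order of the mean CRYAB signals was positive (17.02 ± 0.08, SD, n = 4), Holstein (16.53 ± 0.37, n = 13), unknown (16.08 ± 0.99, n = 21) and cross-breed (15.89 ± 0.31, n = 5). The positive and Holstein ranges overlapped only through the Holstein animal C23, at 17.04. Of the 21 unknown animals, 10 were below and 10 above every cross-breed control for CRYAB, so a mean over them describes neither cluster. The neighbours unknown and cross-breed had a log2 change of 0.19 (95% confidence interval -0.71 to 1.08, limma adjusted p = 0.793). That last change turned to -0.06 under pairwise cyclic loess and to -0.17 without the 5 animals with dim spike-in RNAs.

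HSPA1A was read by a brighter probe, called the first here, that was designed to an expressed sequence tag described as similar to human HSPA1A, and by the second probe, named HSPA1B on the array, whose accession now belongs to HSPA1A. The third probe, named HSPA1A on the array, was under 4 on 35 arrays and was not tested. Both bright probes moved together over the 43 arrays (r = 0.845), as a description of probes that share libraries and target. HSPA1A has near-identical copies such as HSPA1B, HSPA1L lies next to HSPA1A in the RefSeq gene order, and an assignment of either signal to 1 gene is uncertain.

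On the first probe the Holstein controls ran from 14.56 to 16.71 with a median of 15.86. The cross-breed controls had 16.37 in K10, 16.43 in K12, 16.88 in K11, 16.90 in K8 and 17.26 in K7. All Holstein animals but C23 were below every cross-breed control. HSPA1A was 2.15-fold lower in the Holstein controls by this probe (log2 change -1.10, standard error 0.29, limma adjusted p = 0.00447).

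On the second probe the Holstein controls ran from 10.96 to 13.94 with a median of 12.99, and the cross-breed controls had 14.33 in K10, 14.57 in K12, 15.17 in K11, 15.38 in K8 and 16.54 in K7. The ranges did not overlap. The second probe was 5.81-fold lower (log2 change -2.54, standard error 0.43, limma adjusted p = 1.14e-04), with an exact permutation p of 1.17e-04, the smallest that 8568 arrangements allow. Under 10 other ways of processing, this log2 change stayed between -2.76 and -2.36. That of the first probe missed the adjusted threshold under 75th percentile scaling (-0.72, adjusted p = 0.0514) and fell under 2-fold without K7 (-0.98).

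These were the only heat shock probes called of 7 between the control breeds, where 20.6% of all probes were called (9.69% as lower) and the ranges of 16.2% did not overlap. CRYAB and HSPA8 passed the adjusted p alone, so 4 of 7 did so, against 48.3% of all probes.

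In the commercial animals HSPA1A was compared with the cross-breed controls on the same probes, which had r = 0.849 with each other over the 21 unknown animals. On the first probe the positive animals had 16.16 in S54, 16.33 in S57, 16.73 in S21 and 17.05 in S56, inside or just below the range of the cross-breed controls. The unknown animals ran from 15.78 to 17.43 with a median of 16.87. The log2 changes against the cross-breed controls were -0.20 (95% confidence interval -0.73 to 0.33, limma adjusted p = 0.509) in the positive and -0.04 (-0.49 to 0.41, adjusted p = 0.918) in the unknown animals, and neither passed. The first turned to 0.21 under 75th percentile scaling and 0.13 with normexp background correction, and was -1.04 (adjusted p = 0.00301) under pairwise cyclic loess. The other turned to 0.07 with normexp and when scan day was a random block, to 0.05 when the slide was, and to 0.08 without K7.

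On the second probe the positive animals had 13.89 in S57, 13.95 in S54, 14.44 in S56 and 14.57 in S21, and the unknown animals ran from 11.89 to 15.78 with a median of 14.04. Of the 21 unknown animals, 15 were below every cross-breed control. The log2 change was -1.33 in the unknown animals (standard error 0.48, limma adjusted p = 0.0452), 2.52-fold lower, and -0.99 in the positive animals (standard error 0.40, adjusted p = 0.0585), which did not pass. Whether the changes of the probes differ from each other was not tested.

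The call in the unknown animals was close to the threshold. It was lost under 4 of the 5 other normalizations, with 75th percentile scaling (-1.34, adjusted p = 0.059), quantile normalization (-1.30), pairwise cyclic loess (-1.36) and normexp (-1.38), and was also lost when dim probes were kept (adjusted p = 0.0578). It was lost without K7 (-0.997), K8 (-1.29), K11 (-1.34) or K12 (-1.49), without the unknown animals 50 and 79 (-1.37, adjusted p = 0.0506), and when slide (-1.16, adjusted p = 0.109) or scan day (-1.09, adjusted p = 0.183) entered as a random block. Without the 5 animals with dim spike-in RNAs it was kept (-1.52, adjusted p = 0.0265). Among the positive animals a call was gained without K10 (-1.20) or K12 (-1.14).

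The 5 unknown animals of the study's set 2 had the lowest signals of the second probe among the unknown animals, from 11.89 to 12.79, against 13.78 to 15.78 in set 3 and 13.46 to 14.88 in set 4. They were also the lowest 5 on the first probe, from 15.78 to 16.24. The mean of the second probe fell in the order cross-breed (15.20 ± 0.86, SD), positive (14.21 ± 0.34), unknown (13.87 ± 1.03) and Holstein (12.66 ± 0.86), and each pair of neighbours in it had overlapping ranges.

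HSPA8, the constitutive HSP70 of the cytosol, was higher in the cross-breed controls than in most other animals. Its signal there was 13.79 in K12, 13.99 in K11, 14.16 in K8, 14.29 in K10 and 14.68 in K7. The positive animals had 13.02 in S54, 13.06 in S56, 13.33 in S21 and 13.50 in S57. All of the positive animals were below all of the cross-breed controls. In this comparison CRYAB and HSPA8 were the 2 of the 7 heat shock probes with ranges that did not overlap, against 43.3% of all probes. The same 2 passed the limma adjusted p alone, against 51.7% of all probes.

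The unknown animals ran from 12.34 to 14.43 for HSPA8 with a median of 13.12, and 20 of 21 were below every cross-breed control, the exception being animal 52. The Holstein controls ran from 12.91 to 13.90 with a median of 13.65, and 10 of 13 were below every cross-breed control.

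HSPA8 was 2.09-fold lower in the unknown animals (log2 change -1.06, standard error 0.26, limma adjusted p = 0.00447). In the positive animals the log2 change was -0.95 (standard error 0.20, adjusted p = 0.00258) and in the Holstein controls -0.62 (standard error 0.16, adjusted p = 0.00374), past the adjusted threshold in both and under 2-fold. The change in the unknown animals passed the adjusted threshold under every one of 12 other ways of processing (-1.20 to -0.97) but dropped under 2-fold under 4 of them, and without K7 (-0.94). In the positive animals it passed 2-fold without S57 (-1.04), K11 (-1.001) or K12 (-1.05).

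HSPA8 and the second probe of HSPA1A were the heat shock probes called of 7 between unknown and cross-breed animals, a comparison in which 10.4% of all probes were called (5.19% as lower). They were also the only 2 of the 7 past the adjusted p alone, against 22.1% of all probes, and none of the 7 had ranges that did not overlap, against 4.21%. Without the 5 animals with dim spike-in RNAs the count was also 2, and the log2 change of HSPA8 was -1.20.

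The order of the mean HSPA8 signals was cross-breed (14.18 ± 0.34, SD, n = 5), Holstein (13.56 ± 0.27, n = 13), positive (13.23 ± 0.23, n = 4) and unknown (13.12 ± 0.56, n = 21). The Holstein, positive and unknown ranges overlapped. Within the unknown animals, the study's set 2 averaged 12.54 ± 0.18, set 4 12.86 ± 0.34 and set 3 13.64 ± 0.35.

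The array also carries probes for loci described as like HSPA8, which are not members and were too dim to test. The probe of LOC613360 was well above background on all 5 cross-breed arrays and on none of the 13 Holstein arrays, and by a lower limit was at least 2.07-fold higher in the cross-breed controls. The probe of LOC616390 ran the other way, well above background on all 4 positive arrays and on none of the 5 cross-breed arrays, and by the same kind of limit was at least 1.93-fold higher in the positive animals. For these limits dim arrays were raised to a floor. It averaged 4.18 in the Holstein controls for LOC613360 and 4.12 in the cross-breed controls for LOC616390. Signals of LOC613360 flagged as well above background went down to 3.42, in animal 50, which is below that floor.

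HSPA5, also known as BiP or GRP78, is the main chaperone of the endoplasmic reticulum and a standard marker of its stress response. Its signal was 13.18 in S54, 13.30 in S57, 13.33 in S56 and 13.52 in S21, and 13.03 in K12, 13.08 in K8, 13.24 in K7, 13.39 in K11 and 13.46 in K10. The unknown animals ran from 12.88 to 14.30 with a median of 13.51, and the Holstein controls from 12.98 to 14.34 with a median of 13.69. Above every cross-breed control were 12 of 21 unknown and 8 of 13 Holstein animals, and all groups overlapped.

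The log2 change of HSPA5 was 0.36 (standard error 0.18, limma adjusted p = 0.14) in the unknown animals and 0.40 (standard error 0.18, adjusted p = 0.0746) in the Holstein controls, and neither passed over all probes. The Holstein change passed the adjusted threshold under 75th percentile scaling (0.57, adjusted p = 0.00965), normexp (0.49) and quantile normalization (0.46). In the positive animals it was 0.09 (95% confidence interval -0.23 to 0.42, adjusted p = 0.624), and 0.50 (adjusted p = 0.0156) under pairwise cyclic loess.

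HSP90AA1, the inducible cytosolic HSP90, had 14.73 in S57, 14.85 in S56, 14.94 in S54 and 14.98 in S21. The cross-breed controls ran from 14.44 in K11 to 14.90 in K10, the Holstein controls from 14.10 to 15.15 with a median of 14.67, and the unknown animals from 14.38 to 15.67 with a median of 15.07. All groups overlapped.

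The log2 changes of HSP90AA1 were 0.14 (95% confidence interval -0.17 to 0.45, limma adjusted p = 0.436) in the positive, 0.31 (-0.04 to 0.67, adjusted p = 0.2) in the unknown and -0.08 (-0.37 to 0.21, adjusted p = 0.648) in the Holstein animals. None passed. Under 75th percentile scaling the Holstein change was 0.18 and the positive change 0.43 (adjusted p = 0.0456). The printed intervals of HSPB1 and HSP90AA1 in these comparisons reached no 2-fold change in either direction. Intervals under other scalings are not given here.

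**Figure D3:**
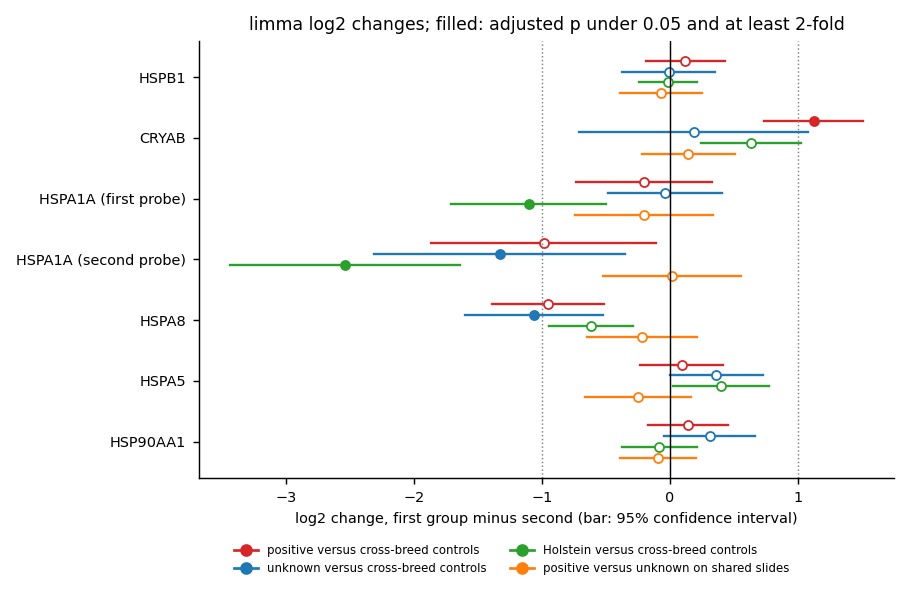
Log2 changes of the 7 heat shock probes (x axis, first group minus the group it is compared with) with 95% confidence intervals from limma, coloured by comparison, and filled where the adjusted p was under 0.05 and the change at least 2-fold (dotted lines). The largest change was that of the second HSPA1A probe in the Holstein controls, -2.54.

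Within the slides that held positive and unknown animals, limma called 0 of 16354 probes (0%), with 1872 (11.4%) at an unadjusted p under 0.05 and none of the 7 heat shock probes among them. The ranges of 6.63% of all probes, and of none of the 7, did not overlap. The 95% confidence intervals of the log2 change were -0.39 to 0.25 for HSPB1, -0.74 to 0.34 for the first and -0.52 to 0.56 for the second probe of HSPA1A. They were -0.65 to 0.21 for HSPA8, -0.66 to 0.16 for HSPA5 and -0.39 to 0.21 for HSP90AA1. With 4 animals on each side a 2-fold change lay outside all of these intervals. The exact permutation test within slides cannot give a p below 0.0556 here.

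The spread among animals of a group differed between the heat shock genes. The SD pooled over groups was 0.29 for HSPB1, 0.30 for HSP90AA1, 0.34 for HSPA5, 0.45 for HSPA8 and 0.50 for the first probe of HSPA1A, against a median of 0.54 over all probes tested. It was 0.74 for CRYAB and 0.92 for the second probe of HSPA1A. In the Holstein controls alone the order was another one, with the first probe of HSPA1A (SD 0.63) above and CRYAB (SD 0.37) below the median of 0.41 over all probes.

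How the genes varied together was examined within the 21 unknown and the 13 Holstein animals, in 35 relations, of which 32 had a positive r. CRYAB was correlated within its clusters among the unknown animals, because it was split. HSPB1 was taken over all 21, though it also lay apart by scan day, with a narrow gap. It ran from 16.51 to 17.08 on days 4 and 5 and from 17.11 to 17.75 on days 6 to 9. Slides accounted for 86.6% of its variance there, and the part of the scan day in its relations was not tested. After Benjamini-Hochberg adjustment over the 35, 10 passed by Pearson's r, 5 in each group (permutation test with 100000 permutations, two-sided). By Spearman's rho 4 of these 10 did not pass, HSPA1A with HSP90AA1 in the unknown animals (adjusted p = 0.0856), HSPA1A with HSPA5 in the Holstein controls (adjusted p = 0.0568), and CRYAB with HSP90AA1 in the Holstein controls and in the high CRYAB cluster (adjusted p = 0.0717 for each). HSPB1 with HSP90AA1 in the Holstein controls passed by rho (0.742, adjusted p = 0.0275) but not by r (0.643, adjusted p = 0.0614), and had r = 0.956 as deviations from slide means.

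In the Holstein controls, HSPA1A on its first probe rose with HSP90AA1 (r = 0.795, p = 0.00124, adjusted p = 0.0114; rho = 0.802, p = 0.00157). It also rose with HSPB1 (r = 0.78, adjusted p = 0.0114; rho = 0.753) and, less closely, with HSPA5 (r = 0.687, adjusted p = 0.0382; rho = 0.681). HSPA8 rose with HSPA5 (r = 0.757, adjusted p = 0.0114; rho = 0.758). Without the 2 animals farthest from the median these were 0.884, 0.751, 0.448 and 0.857.

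CRYAB and HSP90AA1 of the Holstein controls had r = 0.793 (adjusted p = 0.0114; rho = 0.643), which dropped to 0.399 without C23 and C48, so this relation rests on those animals.

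In the unknown animals, HSP90AA1 rose with HSPA5 (r = 0.676, p = 7e-04, adjusted p = 0.0114; rho = 0.606), HSPA1A (r = 0.619, adjusted p = 0.0163; rho = 0.483) and HSPA8 (r = 0.533, adjusted p = 0.0442; rho = 0.573). HSPB1 rose with HSPA8 (r = 0.659, adjusted p = 0.0114; rho = 0.622). Without the 2 farthest animals these were 0.572, 0.5, 0.44 and 0.537. In the high CRYAB cluster CRYAB rose with HSP90AA1 (r = 0.82, n = 10, permutation p = 0.00405, adjusted p = 0.0177; rho = 0.733), and without animals 50 and 81 r was 0.579.

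Each value was also taken as a deviation from its slide's mean. Among the unknown animals none of the relations passed after adjustment on this scale, and r was 0.461 for HSPA5 with HSP90AA1 and 0.222 for HSPB1 with HSPA8. In the Holstein controls r was 0.727 for HSPA1A with HSP90AA1, 0.788 for HSPA1A with HSPB1, 0.663 for HSPA1A with HSPA5 and 0.821 for HSPA8 with HSPA5, over 12 arrays on 6 slides. None passed after adjustment there, but permuting within those slides allows only 64 arrangements, with an exact p of 0.0312 as the smallest, so little can be read from that count. Without the 5 unknown animals with dim spike-in RNAs, 1 relation among the unknown animals passed, that of HSPA5 with HSP90AA1 (r = 0.779).

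**Figure D4:**
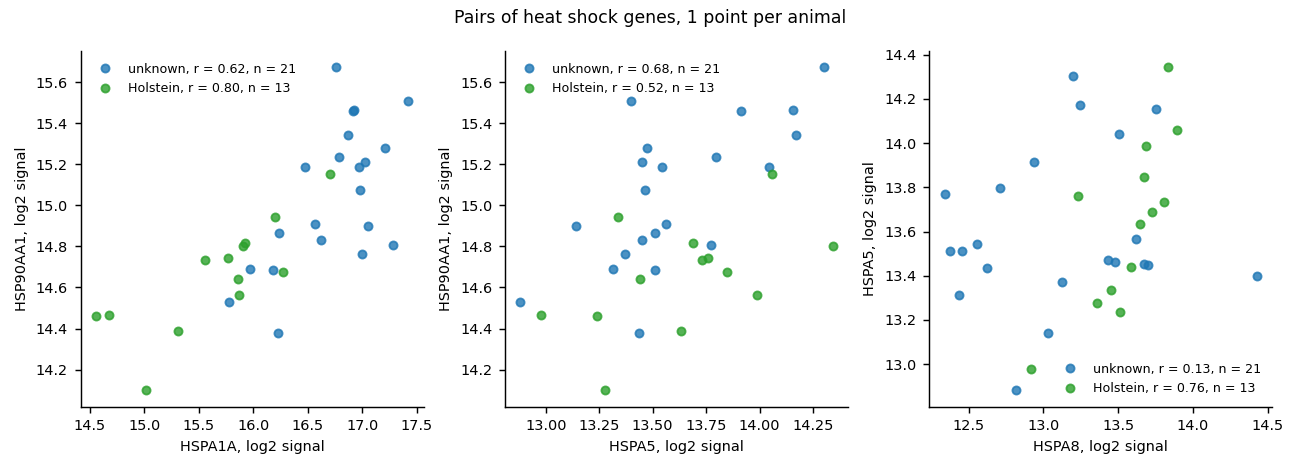
Pairs of heat shock genes, with the normalized log2 signal of 1 gene on each axis and 1 point per animal for the 21 unknown and 13 Holstein animals. HSPA1A and HSP90AA1 rose together in both groups (r = 0.62 and 0.80), and HSPA8 and HSPA5 had r = 0.76 in the Holstein and 0.13 in the unknown animals.

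The fibre type genes moved with several of these groups and genes. Between positive and cross-breed animals 28.1% of all probes were called. Of 9 fast fibre genes tested, out of 12 listed, 6 were called lower in the positive animals than in the cross-breed controls, with a median log2 change of -3.31, among them MYBPC2 (-6.01), ATP2A1 (-5.12) and TNNC2 (-4.49), while MYL1, the brightest gene of the list, had a log2 change of 0.71 (limma adjusted p = 0.00481). Of 9 slow fibre genes tested, out of 10 listed, such as TNNC1, the troponin C of slow and cardiac muscle, 4 were called higher and 1 lower, with 6 higher under 75th percentile scaling and 1 under pairwise cyclic loess. The mean signal of the fast fibre list was 12.27 ± 0.82 (SD) in the positive, 13.33 ± 1.31 in the unknown, 15.01 ± 0.37 in the cross-breed and 15.68 ± 0.27 in the Holstein animals. That of the slow fibre list was 15.93 ± 0.26, 15.27 ± 0.81, 15.35 ± 0.24 and 15.37 ± 0.31 in the same order. Summed over its genes, the fast fibre signal (log2) ran from 17.39 to 18.19 in the positive and from 19.09 to 19.96 in the cross-breed animals, which did not overlap, and the slow fibre signal from 20.49 to 20.84 and from 19.25 to 20.05, which did not overlap either. TNNC1 was the brightest gene of the slow fibre list. Their part in the changes of the heat shock genes was not tested.

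Across animals, 6 of 26 relations between a heat shock gene and a fibre list passed after adjustment. Among the unknown animals the slow fibre list rose with HSPA8 (r = 0.772, permutation p = 4e-05, adjusted p = 0.00104; rho = 0.786), HSPA1A (r = 0.77, adjusted p = 0.0013; rho = 0.648) and HSPB1 (r = 0.668, adjusted p = 0.00936; rho = 0.773). As deviations from slide means r was 0.8 for HSPA1A, 0.299 for HSPA8 and -0.232 for HSPB1. The fast fibre list fell with HSPA1A (r = -0.62, adjusted p = 0.0179; rho = -0.621) and HSP90AA1 (r = -0.559, adjusted p = 0.0373; rho = -0.599), with r of -0.427 and -0.153 as deviations from slide means. In the Holstein controls CRYAB rose with the slow fibre list (r = 0.713, adjusted p = 0.0325; rho = 0.681), with 0.857 as deviations from slide means and 0.452 without C23 and C48. By rho alone HSPA1A (0.808, adjusted p = 0.00953) and HSP90AA1 (0.703, adjusted p = 0.035) also passed there, with r of 0.404 and 0.572. Without animals 50 and 79 the 5 relations among the unknown animals still passed. There HSP90AA1 with the slow fibre list passed as well (r = 0.586, permutation test, adjusted p = 0.0378, against 0.0615 with all unknown animals). Without the 5 animals with dim spike-in RNAs HSPA8 (r = 0.792) and HSPA1A (r = 0.763) passed with the slow and HSPA1A (r = -0.735) with the fast fibre list, while HSPB1 with the slow (r = 0.562, permutation test, adjusted p = 0.0923) and HSP90AA1 with the fast list (r = -0.593, adjusted p = 0.0834) did not.

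Genes of other cell types in the samples also moved. The adipocyte markers had a mean signal of 4.35 ± 0.84 (SD) in the cross-breed controls and of 7.56 ± 0.57 in the positive, 7.23 ± 1.26 in the unknown and 7.49 ± 1.21 in the Holstein animals, with FABP4 the brightest and LEP dim. Of the 4 that were tested, out of 6 listed, 3, 2 and 4 were called higher in these groups. Over all probes tested, 28.1%, 10.4% and 20.6% were called in the same comparisons, and all of these marker lists are short. Summed over the list, they ran from 6.25 to 7.98 (log2) in the cross-breed controls and from 8.09 to 14.1 in the other animals, with no overlap. Of 5 endothelial markers, 3 were called higher in the positive animals and none in the unknown or Holstein animals. In the positive animals pairwise cyclic loess called 1 of these markers higher and normexp 2. Of 5 fibroblast markers, 3 were called lower in the positive, 2 higher in the unknown and 3 higher in the Holstein animals, and of 6 leukocyte markers none was called, though pairwise cyclic loess called 3 lower in the positive animals. Of 3 erythroid markers tested, out of 5 listed, HBA (log2 change 1.71) and HBB (1.001) were called higher in the positive animals, though HBB was -1.12 under pairwise cyclic loess, 1 was called higher in the Holstein controls and none in the unknown animals. The part of these cells in the changes of the heat shock genes was not tested.

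Other chaperones gave the setting of these genes. Leaving out the 6 members and the second probe of HSPA1A, 104 chaperone and stress genes were tested. Of these, 18.3% were called between positive and cross-breed animals, against 28.1% of all probes. The shares were 7.69% against 10.4% between unknown and cross-breed animals and 17.3% against 20.6% between the control breeds.

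Among the 8 small heat shock proteins, HSPB6 and HSPB7, both abundant in heart and skeletal muscle, were called lower in all 3 comparisons with the shared cross-breed controls. The log2 changes of HSPB7 were -1.54, -1.71 and -1.73 in the positive, unknown and Holstein animals, and those of HSPB6 were -1.15, -1.02 and -1.33. Under 5 other normalizations HSPB7 was called lower each time in all 3, and HSPB6 kept its direction but was called under 3, 2 and 5 of them. CRYAB was the only 1 of the 8 called higher in any of the 3, except that it was not under pairwise cyclic loess and that CRYAA, the crystallin of the lens, was too in the positive animals under 75th percentile scaling (1.43, against 0.24). The median log2 change of the list was -0.58 in the positive animals, against -0.03 over all probes, and ran from -0.27 under 75th percentile scaling to -0.87 under pairwise cyclic loess. HSPB2, the neighbour of CRYAB in the genome, had a log2 change of -0.45 in the positive animals (limma adjusted p = 0.0267), opposite in sign to that of CRYAB, and between -0.66 and -0.13 under the 5 other normalizations.

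The HSP70 family had 16 entries, with the first and the second probe of HSPA1A as separate ones. Of these, 2 were called higher and 0 lower in the positive animals, 3 and 2 in the unknown, and 2 and 2 in the Holstein controls, where the lower ones were the pair of HSPA1A probes. In the positive animals the counts were 5 and 0 under 75th percentile scaling, 2 and 3 under pairwise cyclic loess, and 0 and 0 with normexp. HSPA4L had log2 changes of 2.06, 1.90 and 1.95, and was called under 3, 2 and 4 of the 5 other normalizations. HSPH1, an exchange factor for HSP70, was called higher in the unknown animals (log2 change 1.09, limma adjusted p = 0.0255), had 0.89 (adjusted p = 0.00721) in the positive animals and 0.08 in the Holstein controls. In the HSP90 family of 4, only the mitochondrial TRAP1 was called, 1.04 higher in the positive animals. It was called there under 4 of the 5 other normalizations, and not with normexp.

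Among 28 J proteins, 3 were called higher and 5 lower in the positive animals, 0 and 1 in the unknown, and 1 and 4 in the Holstein controls. With normexp the counts were 1 and 2 in the positive animals and 1 and 2 in the Holstein controls. DNAJA4 was called lower in positive, unknown and Holstein animals (log2 changes -1.69, -1.30 and -1.59). The stress-induced DNAJB1 had a log2 change of 1.24 (standard error 0.63, limma adjusted p = 0.125) in the positive animals.

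Among 21 cochaperones, 1 was called higher and 4 lower in the positive animals, 0 and 1 in the unknown, and 1 and 4 in the Holstein controls. With normexp the counts were 1 and 1 in the positive animals, 0 and 0 in the unknown, and 1 and 1 in the Holstein controls. BAG3, which joins HSP70 to small heat shock proteins in muscle, was called lower in the Holstein controls (log2 change -1.11, limma adjusted p = 1.42e-04). FKBP5, a cochaperone of the glucocorticoid receptor whose gene is induced by glucocorticoids, was called higher there (1.68, adjusted p = 4.51e-05). Its change was -0.51 (adjusted p = 0.0976) in the positive animals and 0.79 (adjusted p = 0.262) in the unknown.

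Among 11 mitochondrial chaperones and chaperonins, none was called in the positive or the unknown animals, where 3 and 5 passed the adjusted p upward, and CCT6B was called higher in the Holstein controls (2.10), and also under 1 of the 5 other normalizations. Pairwise cyclic loess called 2 of the list higher in the positive and 1 lower in the unknown animals. The factors that switch on heat shock genes, HSF1 and HSF2, were not called. HSF1 had log2 changes of -0.75 (limma adjusted p = 0.0213), -0.57 and -0.45, and HSF2 of -0.12, -0.16 and -0.61 (adjusted p = 0.00337), in positive, unknown and Holstein animals. In the positive animals HSF1 was 0.10 under 75th percentile scaling and -2.65 under pairwise cyclic loess, which called it lower, as did quantile normalization, and HSF2 was 0.25 under pairwise cyclic loess. HSF2BP, a protein that binds HSF2, was called higher in all 3 (1.35, 1.15 and 1.38). Its call was lost with normexp in all 3, and with quantile normalization in the unknown animals. Of 24 genes of endoplasmic reticulum stress, 1 was called lower in the positive animals, none in the unknown animals and 2 higher in the Holstein controls, XBP1 (1.08) and CRELD2 (1.49). In the positive animals pairwise cyclic loess called 2 higher and 7 lower, while quantile normalization, normexp and the deposited values called none.

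**Figure D5:**
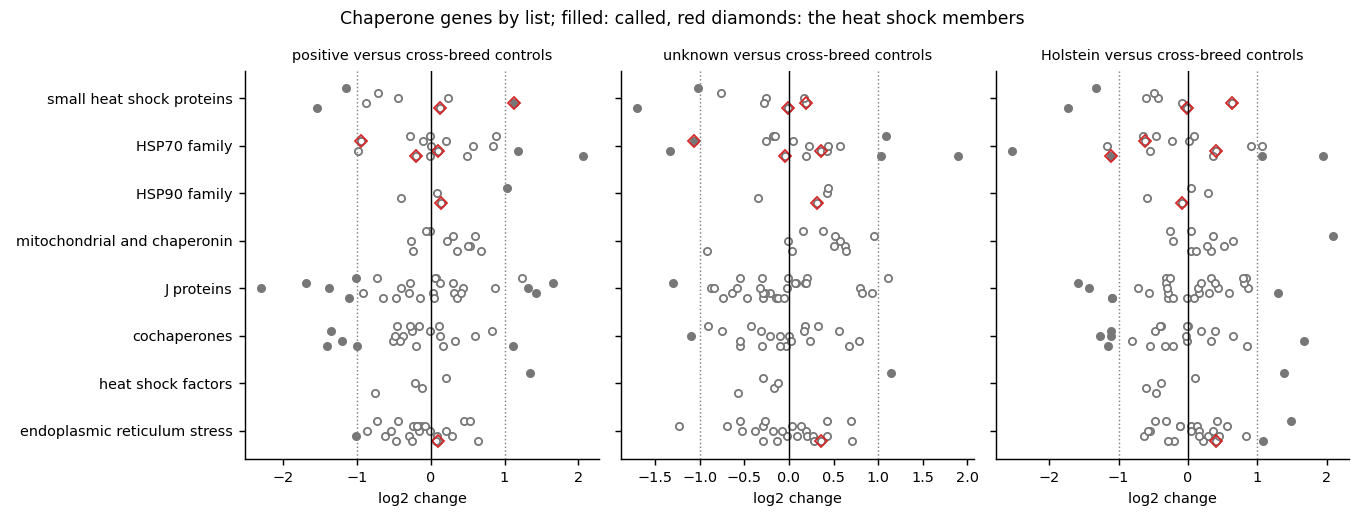
Log2 changes (x axis) of chaperone genes by list (y axis) in the 3 comparisons with the cross-breed controls, with 1 point per gene, filled where called, and the 6 heat shock genes ringed by red diamonds. In the positive animals called genes lay on both sides of 0 among the small heat shock proteins, J proteins and cochaperones. They did so in the HSP70 family in the unknown animals, and in the HSP70 family, J proteins and cochaperones in the Holstein controls. CRYAB was the only small heat shock protein called higher. It lost that call under pairwise cyclic loess and shared it with CRYAA under 75th percentile scaling.

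The genes most like each heat shock gene were sought by Pearson's r of deviations from slide means over 38 arrays on 14 slides, as a description. Over the 43 arrays as they stood the likeness was often weaker, and for HSPB1 it was absent or turned with HSPB8 (r = -0.175) and ALOX15 (r = -0.0307). HSPA5 was most like HYOU1 (r = 0.729) and HSP90B1 (r = 0.727), which are chaperones of the endoplasmic reticulum, followed by BOLA (r = 0.722). HSPB1 was most like HSPB8 (r = 0.719), LBP (r = 0.716) and ALOX15 (r = 0.688), with HSP90AA1 in place 4 (r = 0.664). HSP90AA1 was most like CPEB1 (r = 0.687), TTC3 (r = 0.678) and RNF103 (r = 0.677), with HSPB1 in place 7.

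HSPA1A on its first probe was most like the unnamed transcripts CB533384 (r = 0.784) and AU275333 (r = 0.745) and like ADAMTS1 (r = 0.769), a secreted protease. CRYAB was most like SUGP2 (r = 0.76), IFT43 (r = 0.732) and WDR62 (r = 0.73), and HSPA8 like EIF5B (r = 0.747), DAP3 (r = 0.744) and DPEP2 (r = 0.741). The member nearest to CRYAB and to HSPA8 was HSP90AA1, in place 2192 and 2201.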

How the data were processed

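The authors deposited scanner output with a processed intensity per spot, from which the Feature Extraction software had already removed background and spatial trends. The log2 of these intensities was normalized across the 43 arrays by fast cyclic loess then averaged per probe with outlier spots left out. Probes under 4 on at least 30 arrays were left out, which left 16354 of 21475. The deposited value table, a linear scale by its match to the arrays (r with the own array 0.957 to 1.00, column medians 86.8 to 301.5, 14.8% of cells blank, centring unstated), was used as an alternative. Groups were compared with limma 3.58.1 in R 4.3.3, with Benjamini-Hochberg adjustment over all probes and only the arrays compared in each fit. Calls needed an adjusted p below 0.05 and at least a 2-fold difference. Fits were also run on simulated data with known changes. The simulated arrays held no effect of slide, scan day or scanner, so they cannot speak to such effects in the calls.

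The genes and lists were chosen with earlier results of these data known. For each gene the brightest probe was the main one. Of the other chaperones, the called genes with the largest changes, up to 4 a list, could be named, and always HSF genes, BAG3, DNAJB1, HSPH1, HSP90B1 and FKBP5. HSPB2, as the neighbour of CRYAB, was chosen after its values were seen. Symbols came from the files and, by accession or gene identifier, from RefSeq. Labels give no replicate number that pairs animals. Each array is 1 animal, and the number of arrays limits the precision.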

Additional observations from a re-analysis of the deposited data

How the results depend on the processing

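The alternatives without animals 50 and 79, and without animals 29, 39, 52, 61 and 76, were chosen after seeing the data. No paired analysis was possible because the labels give no replicate numbers shared between groups, and only the shared slides, used as a block for positive against unknown animals, match arrays. Where a result moved, the cause was not tested. Probes called between positive and cross-breed animals numbered 4598, against 1378 with normexp background correction and 7590 with no filter on dim probes. Between unknown and cross-breed animals they numbered 1706, and 804 with normexp. Between the control breeds they numbered 3361, and 1350 with normexp. Leaving out 1 animal at a time gave 4356 to 4655 called probes for positive against cross-breed animals and 0 to 9 on the shared slides, the 9 without animal 79. Leaving out 1 of the 5 cross-breed controls, and no unknown or Holstein animal, gave 1347 to 1514 for the unknown and 3155 to 3302 for the Holstein animals.

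Heat shock probes called between positive and cross-breed animals numbered 1, 0 in a common fit of 43 arrays and 1 to 3 leaving out 1 animal. With cyclic loess on every pair the 1 called was the first probe of HSPA1A, as lower (-1.04), and CRYAB was not called. Between unknown and cross-breed animals the heat shock probes called numbered 2. The count was 1 with 75th percentile scaling, quantile normalization, no filter or without animals 50 and 79, and 0 with cyclic loess on every pair, normexp, or the slide or scan day as a random block. It was 0 to 2 leaving out 1 cross-breed control. Between the control breeds it was 1 to 2 leaving out 1 cross-breed control, and on the shared slides 0 throughout.

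Directions of small changes turned. Positive against cross-breed, HSPA1A was 0.21 (75th percentile) and 0.13 (normexp), and HSPB1 -0.90 (every pair). Unknown against cross-breed, HSPB1 was 0.0045 (75th percentile), 0.12 (normexp), 0.0563 (slide block) and 0.0724 (day block), HSPA1A 0.0731 (normexp), 0.0472 (slide block) and 0.068 (day block), and CRYAB -0.0622 (every pair) and -0.17 (without the 5 animals). Leaving out 1 control, HSPB1 ran from -0.0461 to 0.0299 and HSPA1A from -0.14 to 0.084. Holstein against cross-breed, HSPB1 was 0.42 and HSP90AA1 0.18 (75th percentile), and HSPB1 ran from -0.0526 to 0.0235 leaving out 1 control. On the shared slides, 75th percentile scaling gave 0.24 for HSPB1, 0.091 for HSPA1A and 0.16 for HSP90AA1, quantile normalization 0.11 for HSPB1 and -0.002 for the second probe of HSPA1A, and normexp 0.0562 for HSPB1 and 0.018 for HSP90AA1. The second probe was -0.0295 with every pair, -0.0018 in the deposited table and -0.15 to 0.17 leaving out 1 animal.

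Pairs of heat shock genes past the threshold numbered 5 among unknown animals, 10 with 75th percentile scaling, 12 with normexp, 0 as deviations from slide means and 1 without the 5 animals. Among Holstein controls they numbered 5, 9 with normexp and 0 as deviations, with only 64 arrangements to permute.

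The share of called probes that were higher was 51.0% for positive against cross-breed animals, 69.1% with 75th percentile scaling, 39.1% with quantile normalization, 33.5% with every pair and 63.6% when only probes well above background were kept. It was 50.2% and, with every pair, 39.0% for unknown animals, and 52.9% and, with 75th percentile scaling, 35.4% for Holstein controls. The median change of all probes moved to 0.11, -0.13 and -0.25 for positive animals with 75th percentile scaling, quantile normalization and every pair, to -0.11 for Holstein controls with 75th percentile scaling, and to 0.13 and -0.11 on the shared slides with quantile normalization and every pair.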
